A study of Mus musculus with 2 samples.

Results

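MiR-223, a microRNA (miRNA) known for its high level in neutrophils and their precursors, and both arms of miR-142, a miRNA found throughout the blood system, were compared between stem and progenitor cells and whole bone marrow of mice. They were taken by name, as the array names mmu-miR-223, mmu-miR-142-3p and mmu-miR-142-5p, and are 3 of the 566 mouse miRNA names on the array. LKS cells (lineage-negative, Kit-positive and Sca1-positive) are the part of the marrow in which haematopoietic stem and early progenitor cells are found. Here they came from C57BL/6J marrow by magnetic column purification and fluorescent sorting, and the unsorted total bone marrow (total BM) of the same strain was the other sample. Each sample was run on 1 single-colour (Cy3) Agilent miRNA array. No age, sex, number of animals or pooling is given in the sources used here, and neither sample carried a stated mutation or treatment.

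A miRNA gene is transcribed as a long precursor that is cut to a hairpin and then to a short duplex. Either strand of that duplex, the 5p or the 3p arm, can be loaded into an Argonaute protein, where bases 2 to 8, the seed, pair with target mRNAs. The miR-223 gene is switched on by myeloid transcription factors such as PU.1 and C/EBP, and miR-223 restrains neutrophil production and activation, in part through the transcription factor Mef2c. The miR-142 gene is active in nearly all haematopoietic lineages, and mice without it have defects in lymphoid, megakaryocytic and other blood cells. Both of its arms are loaded and act on targets.

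The mature sequences are shown because the 3 probes report different RNAs, although a pair of them come from 1 hairpin. They were taken by name from the RefSeq miRNA table of the mouse assembly GRCm38.p6, in which all 3 names were found. RefSeq now writes miR-142 as miR-142a. The array name without an arm is the older name of miR-223-3p. Capitals mark the seed.
mmu-miR-223-3p: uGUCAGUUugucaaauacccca
mmu-miR-142a-3p: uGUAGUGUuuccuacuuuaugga
mmu-miR-142a-5p: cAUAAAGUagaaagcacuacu
The 3 seeds differ from one another. None of the other mouse miRNAs among the 1679 mature names of that table had any of these 3 seeds (0 other names for each). The longest run of letters that miR-223-3p shared with an arm of miR-142 was 4 bases, with miR-142a-3p. The 3 miRNAs are 22, 23 and 21 bases long, in the order shown, and 40.9%, 34.8% and 33.3% of their bases are G or C.

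The miR-142 hairpin lies at chr11:87756864-87756927 on the plus strand of GRCm38.p6, and is shown because the 2 arms come from the same 64-base precursor. Capitals mark the 5p arm (bases 4 to 24) and the 3p arm (bases 40 to 62).
Mir142: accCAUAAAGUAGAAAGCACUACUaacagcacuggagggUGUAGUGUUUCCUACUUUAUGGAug
The annotation places a further miRNA gene, Mir142b, across the same site on the minus strand. Its mature product is the reverse complement of miR-142a-3p over all of its 20 bases, and its bases 3 to 12 repeat the first 10 bases of miR-142a-5p, because the arms of the hairpin pair with each other. The array carries no name for it.
mmu-miR-142b: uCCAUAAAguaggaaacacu
Its seed, in capitals, differs from that of miR-142a-5p. Whether RNA from Mir142b binds the miR-142-5p probe was not tested. Within the table, the mouse miRNA with the longest run shared with miR-142a-5p, after Mir142b and the partner arm were set aside, was miR-3964, at 13 bases, and it too has no name on the array.

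The miR-223 hairpin lies at chrX:96242817-96242926 on the plus strand, within the annotated long non-coding RNA gene F630028O10Rik. Capitals mark its 5p arm (bases 26 to 48) and its 3p arm (bases 68 to 89), of which the array names the 3p arm only.
Mir223: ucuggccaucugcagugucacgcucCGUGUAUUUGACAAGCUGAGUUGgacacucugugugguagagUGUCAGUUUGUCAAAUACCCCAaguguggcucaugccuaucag
No other annotated miRNA gene lay within 10 kb of it (0 genes), whereas Mir142b was the 1 other miRNA gene within 10 kb of the miR-142 hairpin.

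The 2 arrays differed in brightness. The LKS array detected 98 mouse miRNAs and the total BM array 145, of which 93 were detected on both. Detected signals summed to 23256 intensity units in LKS cells, against 52484 for total BM. Ratios between the arrays were therefore taken after each array was divided by its own 75th percentile over these 93 shared miRNAs, 242 in LKS cells and 399 in total BM, which multiplied every LKS signal by 1.65 relative to total BM. Marker miRNAs were read beside the label LKS. Their list was chosen with earlier results of these data known, so it is no independent check of that label. Of 5 stem and progenitor miRNAs, 4 were detected on both arrays and exceeded total BM at least 2-fold (as did 18.3% of the shared miRNAs). The other, miR-125b-5p, was detected in LKS cells only. With 1 array a group there is no replicate and no test. The errors printed are the technical errors deposited with each signal, or are computed from them. They and the technical intervals hold no term for the choice or the error of the scaling factor. The array cannot be told apart from the cells it measured.

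MiR-223 was lower in LKS cells than in total BM. Its total gene signal was 822 ± 73.0 intensity units in LKS cells, against 7250 ± 641 for total BM (deposited error, 1 array each). Its probe ranked 8th among the 566 mouse names in LKS cells and 2nd in total BM, where only the probe for miR-1224 was brighter. Probes differ in affinity, so these ranks describe signal and not the number of molecules. Before scaling, the difference in deposited signal, LKS minus total BM, was -6427 units, or 9.97 combined errors in size. Such a difference includes any difference in brightness between the arrays, for which the combined errors hold no term. This applies to all 3 miRNAs. After scaling, the log2 ratio of LKS over total BM was -2.42 ± 0.18 (95% technical interval -2.77 to -2.06), a 5.34-fold lower level in LKS cells. Before scaling it was -3.14, or 8.81-fold lower.

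MiR-223 was nevertheless well measured in LKS cells. Its LKS signal was 129 times the highest signal of any undetected mouse miRNA on that array (6.39 units) and 11.3 times its own error. The scaled LKS level was 18.7% of that in total BM. In bulk RNA, fewer cells that carry a miRNA and less of it per cell cannot be told apart, and this applies to all 3 miRNAs.

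Markers of mature cells stand beside this value. All 3 erythroid miRNAs (miR-451, miR-144 and miR-486) had a detection call in total BM and none in LKS cells, as did 52 of the 145 mouse miRNAs detected in total BM (35.9%). Their LKS signals were 3.67, -6.84 and -7.42 units, each with an error of about 2.7. The corresponding total BM signals were 260, 17.7 and 32.2 units. Of the mature lymphoid pair, miR-150 was not detected in LKS cells (-3.70 ± 2.70) and was detected in total BM (17.7 ± 3.22), while miR-342-3p was detected on both arrays (38.6 ± 4.26 in LKS cells and 314 ± 25.7 in total BM). Erythroid miRNAs were thus at background in the sorted cells. Before scaling, the LKS signal of miR-223 was 11.3% of its total BM signal. MiR-144, miR-486 and miR-150 were dim in total BM, so a difference of that size could also leave them undetected in LKS cells. That remark does not cover miR-451, which had 260 units in total BM and 3.67 ± 2.72 in LKS cells. Whether mature myeloid cells left in the sort contributed to the LKS signal of miR-223 was not tested.

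MiR-142-3p had a signal of 126 ± 9.82 units in LKS cells, against 713 ± 52.6 for total BM. It was detected on both arrays, with signals 12.8 and 13.5 times their errors. Before scaling, the difference in deposited signal, LKS minus total BM, was 10.95 combined errors below 0. The scaled log2 ratio was -1.77 ± 0.15 (95% technical interval -2.08 to -1.47), a 3.42-fold lower level in LKS cells, and the unscaled one was -2.50, or 5.65-fold lower.

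MiR-142-5p had a signal of 36.5 ± 3.75 units in LKS cells, against 236 ± 16.95 for total BM. Its LKS signal was 9.74 times its error and 5.71 times the highest undetected signal. Before scaling, the difference in deposited signal was 11.5 combined errors below 0. Its scaled log2 ratio was -1.97 ± 0.18 (95% technical interval -2.32 to -1.61), or 3.91-fold lower in LKS cells, and its unscaled ratio was -2.69, or 6.45-fold lower.

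**Figure D1:**
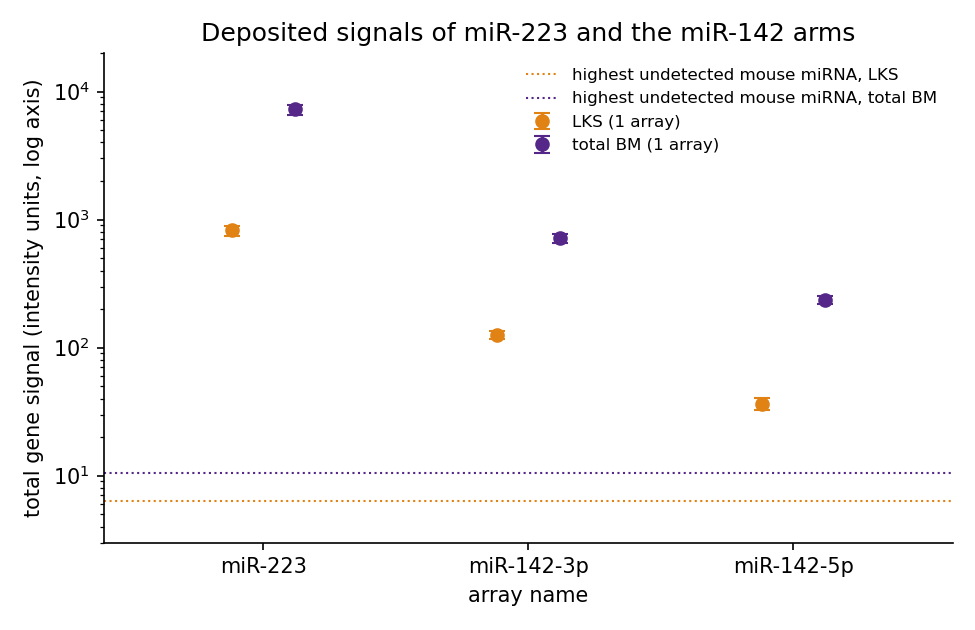
Deposited total gene signal in intensity units (vertical log axis) of miR-223, miR-142-3p and miR-142-5p (horizontal axis) on the LKS array (orange, left of each pair) and the total BM array (purple), with bars for the deposited error of each signal and dotted lines at the highest undetected mouse miRNA of each array (6.39 in LKS cells and 10.4 in total BM). All 6 signals lie above these lines, and each LKS signal lies below its total BM signal by more than both error bars.

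Each signal was also taken as a share of its array's summed detected mouse miRNA signal, which amounts to scaling by that sum. The sum covered 98 names in LKS cells and 145 in total BM. By this measure too, all 3 were lower in LKS cells. MiR-223 made up 3.54% ± 0.31 of the summed detected mouse miRNA signal in LKS cells, against 13.8% ± 1.22 for total BM, a 3.91-fold lower share. MiR-142-3p made up 0.542% ± 0.042 in LKS cells and 1.36% ± 0.10 in total BM, and miR-142-5p 0.157% ± 0.016 in LKS cells and 0.449% ± 0.032 in total BM, shares 2.50-fold and 2.86-fold lower in LKS cells. Together the 3 probes gave 4.24% of the detected signal in LKS cells and 15.6% in total BM. These shares depend on probe affinity and on which other probes are bright, so they are shares of signal only. Before scaling, the summed detected signal was 29228 units lower on the LKS array, and the lower miR-223 signal alone equalled 22.0% of that. Such unscaled differences include any difference in brightness between the arrays. With 1 array a group, that cannot be told apart from a lower miRNA content of the LKS sample. Only miR-1224 had a larger difference in units (409 in LKS cells and 8679 in total BM).

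**Figure D2:**
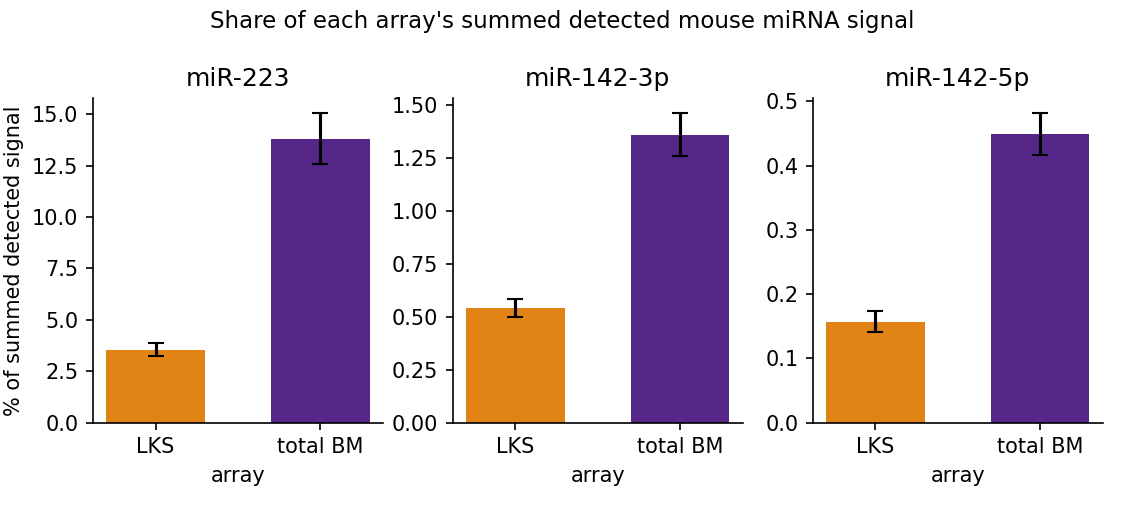
Share of each array's summed detected mouse miRNA signal, in percent (vertical axes, each starting at 0 and differing in range), for miR-223, miR-142-3p and miR-142-5p in LKS cells (orange, left) and total BM (purple, right). Bars are the share on 1 array. Error lines are the deposited error of the miRNA's own signal, with the summed signal taken as exact. Every LKS bar is lower than its total BM bar, most of all for miR-223 (3.54% in LKS cells and 13.8% in total BM).

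All 3 miRNAs were at least 2-fold lower in LKS cells after scaling, as were 17 of the 93 shared miRNAs (18.3%). Without scaling, all 3 were again at least 2-fold lower, against a background of 38.7%. When the arrays were scaled on all mouse miRNAs, detected or not, none of the 3 was (0 of 3), miR-142-3p and miR-142-5p turned to log2 ratios of 0.34 and 0.15, and 7 of the 93 were lower and 77 higher. At a 4-fold threshold, which 11.8% of shared miRNAs passed, miR-223 alone of the 3 passed, and miR-142-5p at 3.91-fold lay just under it. The median log2 ratio of the 3 was -1.97, and that of all 93 was 0.07. Counted from the lowest ratio, miR-223 was 8th of 93, miR-142-5p 12th and miR-142-3p 14th. The 7 miRNAs below miR-223 were miR-714, miR-689, miR-1224, miR-712, miR-494, miR-721 and miR-574-5p, all named after their values were seen. The 3 thus did not hold the lowest places. MiR-712 had the lowest detected signal of the LKS array (2.91 ± 2.02 units). Its log2 ratio was -3.62 ± 1.01, so its place is uncertain.

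**Figure D3:**
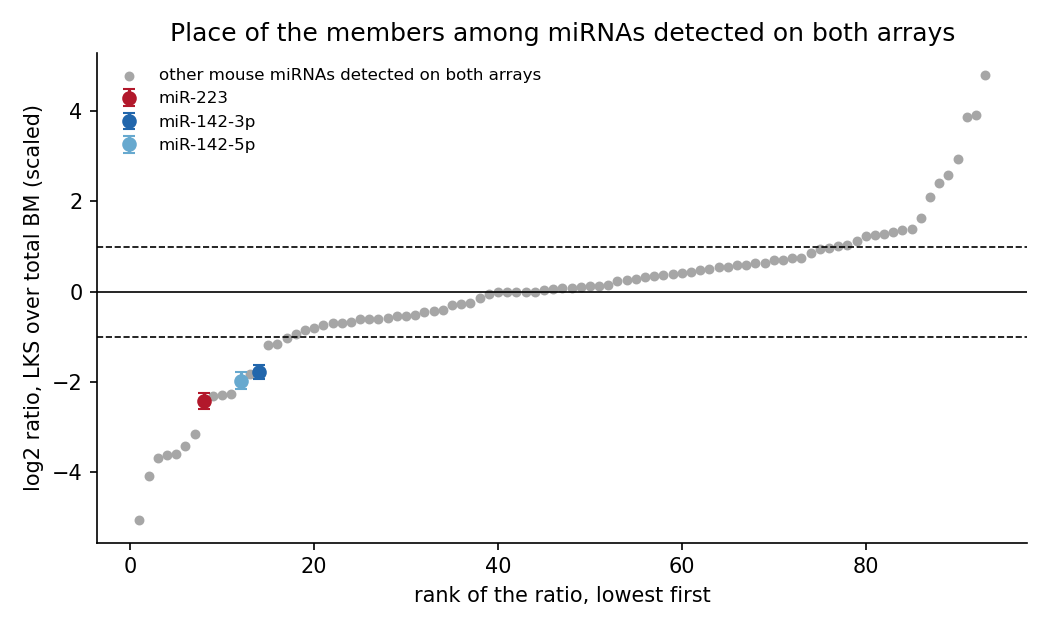
Scaled log2 ratio of LKS over total BM (vertical axis) of the 93 mouse miRNAs detected on both arrays, ranked from lowest to highest (horizontal axis), with the 3 miRNAs in colour, their technical errors as bars, and dashed lines at 2-fold. MiR-223 (8th), miR-142-5p (12th) and miR-142-3p (14th) lie below the lower dashed line, while most other miRNAs lie between the lines.

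Both arms of miR-142 were lower in LKS cells, and the difference between the arms was within technical error. The 3p to 5p signal ratio stood at 3.45 ± 0.45 in LKS cells, against 3.02 ± 0.31 for total BM, and since the arms have different probes, only the change of this ratio between arrays can be read. The log2 ratio of the 3p arm exceeded that of the 5p arm by 0.19 ± 0.24, or 0.81 errors. The 95% technical interval of this difference, -0.27 to 0.66, leaves room for an arm ratio up to 1.58-fold higher or 1.21-fold lower in LKS cells, so equal behaviour of the arms is not shown. A constant scaling cancels in this difference. Quantile normalization, which does not apply a constant, turned it to -0.18, again smaller than its error.

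MiR-223 was further below its total BM level than the miR-142 arms were. Its log2 ratio was 0.55 below the mean of the arms (difference -0.55 ± 0.22, 95% technical interval -0.97 to -0.12), which is 2.52 errors and a 1.46-fold larger deficit. Against the 3p arm alone the difference was -0.64 ± 0.24 (interval -1.11 to -0.18). Against the 5p arm alone it was -0.45 ± 0.26, and that interval, -0.95 to 0.05, includes 0. In signal terms, the miR-223 to miR-142-3p signal ratio stood at 6.52 ± 0.77 in LKS cells, against 10.2 ± 1.17 for total BM. Among the 3, ordered by ratio, neither miR-223 and miR-142-5p nor the 2 arms of miR-142 were separated by an interval that leaves out 0. The errors were combined as independent, and the spread between animals or preparations is not in them.

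The miRNAs whose ratio lay nearest to that of miR-223 were miR-342-3p (log2 ratio -2.30 ± 0.20), miR-22 (-2.28 ± 0.25) and miR-296-5p (-2.27 ± 0.24). MiR-342-3p stands in the mature lymphoid list, and miR-22 is known to target the DNA demethylase Tet2. Their signals were 38.6, 26.4 and 20.6 units in LKS cells and 314, 212 and 164 in total BM. MiR-709 lay nearest to both miR-142 arms, with a log2 ratio of -1.82 ± 0.19 (538 ± 49.99 units in LKS cells and 3130 ± 278 in total BM). It differed from the 3p arm by -0.04 and from the 5p arm by 0.15 on the log2 scale. The next for either arm were miR-296-5p and miR-22. Likeness here rests on a single ratio between 2 arrays.

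Within the list of mature myeloid miRNAs, miR-223 was the 1 name detected on both arrays with a difference of at least 2-fold. That is 1 of 5, near the background of 18.3% lower among all shared miRNAs, so the count says nothing particular of the list. Of the 7 names in that list, 5 were detected on both arrays, miR-146a in total BM only and miR-146b on neither. The other 4 of these lay within 2-fold: miR-21 (log2 ratio 0.33 ± 0.19), miR-24 (0.35 ± 0.15), miR-23a (-0.42 ± 0.17) and miR-27a (-0.58 ± 0.17). MiR-21, which is induced in many activated cell types, had a signal of 906 ± 83.1 units in LKS cells and 1190 ± 109 in total BM. Without scaling, miR-23a and miR-27a were also over 2-fold lower, at -1.14 and -1.31, as were 38.7% of the shared miRNAs. The median log2 ratio of the 5 was -0.42, and that of the 4 other than miR-223 was -0.04, against 0.07 for all 93 shared miRNAs.

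The direction for the miR-142 arms turned under 1 of the scalings tried. LKS signals would have to be multiplied by 8.81 to bring miR-223 level with total BM, by 6.45 for miR-142-5p and by 5.65 for miR-142-3p. The 75th percentile of the shared miRNAs gave a factor of 1.65, their median 1.96, and the 6 non-miRNA probes detected on both arrays 1.41, with single probes of these between 1.20 and 2.03. Only the 75th percentile of all 566 mouse names, detected or not, gave a factor above any of the 3 (7.16). It turned both miR-142 arms to positive log2 ratios, 0.34 for miR-142-3p and 0.15 for miR-142-5p, and left miR-223 at -0.30. On LKS cells that percentile was 1.12 units, below the lowest detected signal of the array (2.91), and on total BM it was 8.0 units. In the authors' deposited value table, which is on a log2-like scale, miR-223 stood at 9.44 in LKS cells, against 12.5 for total BM. In that table the values of miR-142-3p were 6.80 in LKS cells and 9.16 in total BM, and those of miR-142-5p were 5.16 in LKS cells and 7.58 in total BM.

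**Figure D4:**
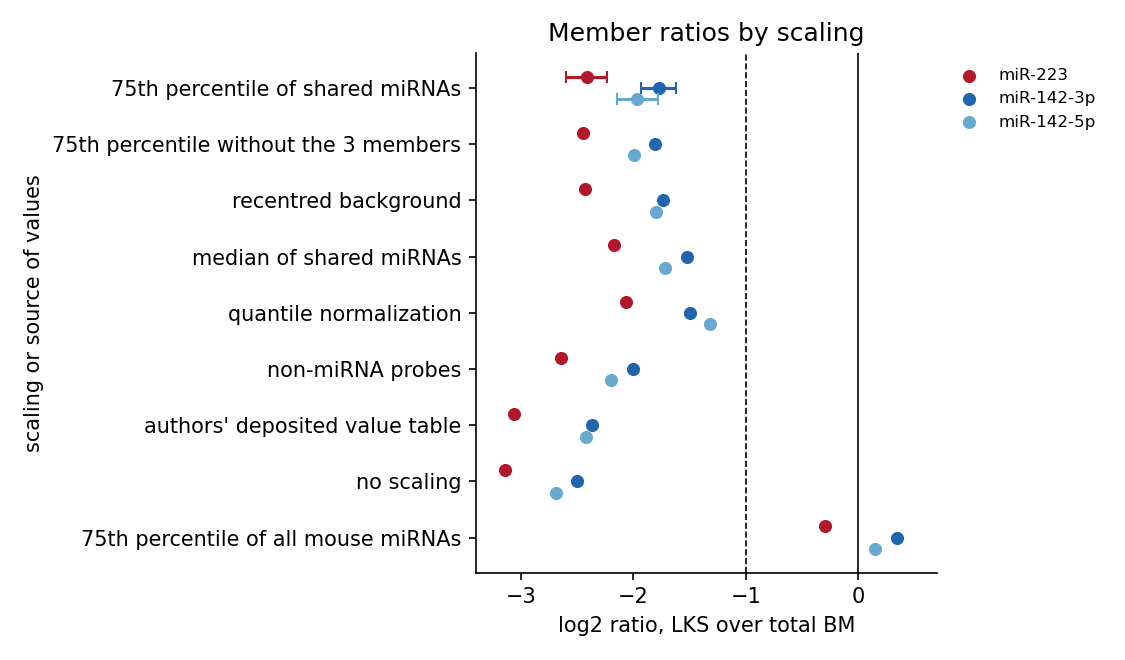
Log2 ratio of LKS over total BM (horizontal axis) of miR-223, miR-142-3p and miR-142-5p under each scaling or source of values (vertical axis), with technical errors as bars in the top row, a solid line at 0 and a dashed line at 2-fold lower. Every point lies beyond the dashed line except in the bottom row, where scaling on all mouse miRNAs put both miR-142 arms above 0.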

How the data were processed

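MiRNA levels were measured on 1 array of LKS cells and 1 of total BM. Per the labels, the miRNeasy kit was used for RNA and Agilent's usual Cy3 labelling followed. The deposited table holds, per the file headers, a total gene signal (linear intensity), its error in the same units and a detection call of 0 or 1. No header names a background step, but 406 mouse names on the LKS array and 315 on the total BM array were below 0, as background subtraction leaves them. The scanner, its software and the call's rule are not stated in the labels or headers. The authors also deposited values on a log2-like scale, with column medians of 1.00 (LKS) and 1.46 (total BM), whose centring is not stated.

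Each array was scaled to its own 75th percentile over shared mouse miRNAs, and log2 ratios taken as LKS over total BM. Errors of ratios were propagated from the deposited errors of the signals, with no term for the scaling factor, and intervals are 1.96 errors. The error of a share is that of the miRNA's own signal, with the summed signal taken as exact. A miRNA counted as lower or higher at 2-fold. Scaling and counting were tested on simulated data with equally many increases and decreases among the shared miRNAs. Such balanced data do not test the scaling for arrays whose changes are unequal. Named miRNAs were the 3 members, the 3 with the nearest log2 ratio to each, and the members of the myeloid and marker lists. The 7 with lower ratios than miR-223 were named after their values were seen. The members, lists and alternatives were chosen with earlier results of these data known. Python 3.11.15, numpy 2.4.6 and pandas 2.3.3 were used. The arrays number 2, which limits the precision, and technical errors leave out biological spread.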

Additional observations from a re-analysis of the deposited data

How the results depend on the processing

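No paired analysis was possible because only 1 LKS array and 1 total BM array were given, which also means that neither could be omitted in turn. The count of members at least 2-fold lower stayed at 3 under each alternative run except scaling on the 75th percentile of all mouse miRNAs (0) and a 4-fold threshold (1). That scaling gave log2 ratios of -0.30 for miR-223, 0.34 for miR-142-3p and 0.15 for miR-142-5p. The other values that moved by more than their technical error are given for miR-223, miR-142-3p and miR-142-5p in that order: -3.14, -2.50 and -2.69 without scaling, -2.17, -1.53 and -1.72 with the median of shared miRNAs, -2.06, -1.50 and -1.32 with quantile normalization, -2.65, -2.004 and -2.20 with the non-miRNA probes, and -3.06, -2.37 and -2.42 in the authors' deposited value table. Leaving the 3 members out of the percentile, or recentring the background, moved no member by as much as its error. The difference between the miR-142 arms became -0.18 under quantile normalization, and the 3p to 5p signal ratio in LKS cells 2.83. Of the 93 shared miRNAs, 17 were lower and 17 higher. These counts were 36 lower and 7 higher without scaling, 7 and 77 with all mouse miRNAs, 28 and 7 in the deposited values, 14 and 29 with quantile normalization, 27 and 28 at 1.5-fold, and 11 and 7 at 4-fold.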
